A study of Homo sapiens with 18 samples.

Results

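The genes described are 10 genes of the actin cytoskeleton and of its transcriptional control: ACTB, ACTG1, ACTA2, TAGLN, CNN1, CNN2, MYL9, VCL, TPM1 and the transcription factor SRF. They were taken by gene symbol and are 10 of the 59251 genes in the deposited count table. Each was measured by poly(A) RNA sequencing in 18 libraries of HEK-293T, a human embryonic kidney cell line, in 6 groups of 3 libraries. In 3 groups the labels name no transfection: cells received DMSO, the solvent control (labelled 0.5 µM), rapamycin, an inhibitor of the mTOR kinase (0.1 µM), or grazoprevir, a hepatitis C protease inhibitor (0.5 µM). The other 3 groups were transfected, with full-length Csy4 and given DMSO, with split Csy4 and given DMSO (untriggered), or with split Csy4 and given grazoprevir (triggered), with the drug or solvent added 6 hours after transfection. Csy4 is a bacterial endoribonuclease that cuts RNA at a hairpin; in the split form its parts come together in the presence of grazoprevir. No labelled group received a transfection that lacked Csy4, so transfection, construct and enzyme cannot be told apart in any comparison of transfected cells with DMSO. Triggered split Csy4 also differs from full-length Csy4 in the drug given, so construct and drug cannot be told apart in that comparison. The labels give 70000 cells per sample. They leave unsaid whether the replicates of a group were grown apart, so the p-values reflect the spread among these libraries alone, which may be technical.

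Actin exists in cells as free monomers and as filaments. SRF binds DNA at CArG boxes and activates genes together with either of a pair of partner families: the MRTF coactivators, which free actin monomers hold back in the cytoplasm, and the ternary complex factors (ELK1, ELK3 and ELK4), which respond to growth factor kinases. Its targets include SRF itself, the actins, vinculin, calponins, transgelin and tropomyosin, the same proteins that give smooth muscle its contractile apparatus. In non-muscle cells the cytoplasmic actins ACTB and ACTG1 make up most of the actin, whereas ACTA2, TAGLN, CNN1 and MYL9 are known as smooth muscle and myofibroblast genes.

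The sequence before the start site is shown for ACTA2, which had the largest log2 fold changes from DMSO with rapamycin and with full-length Csy4 among the tested members, and for the members whose RefSeq promoter window held a CArG box. A window runs from 250 bases before to 50 bases after a start (GRCh38.p14), and 7 of the 10 members had 1 or more. ACTB, TAGLN and MYL9 had none in the table. The lines give the 150 bases before each start, 5′ to 3′, with CArG boxes in capitals. In the line of the downstream start of ACTA2 the capitals mark a near form of the box, with 1 G or C among its central letters.
ACTA2, upstream start, chr10:88991338-88991487, minus strand: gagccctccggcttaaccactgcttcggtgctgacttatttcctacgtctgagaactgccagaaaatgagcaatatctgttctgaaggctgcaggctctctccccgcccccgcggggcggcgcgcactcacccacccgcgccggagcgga
ACTA2, downstream start, chr10:88952774-88952923, minus strand: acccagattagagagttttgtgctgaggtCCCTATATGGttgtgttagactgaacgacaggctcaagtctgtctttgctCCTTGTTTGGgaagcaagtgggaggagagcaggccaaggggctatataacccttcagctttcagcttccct
ACTG1, chr17:81512800-81512949, minus strand: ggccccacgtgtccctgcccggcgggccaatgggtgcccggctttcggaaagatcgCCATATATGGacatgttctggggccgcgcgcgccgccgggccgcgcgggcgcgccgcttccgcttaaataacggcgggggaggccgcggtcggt
SRF, chr6:43171119-43171268, plus strand: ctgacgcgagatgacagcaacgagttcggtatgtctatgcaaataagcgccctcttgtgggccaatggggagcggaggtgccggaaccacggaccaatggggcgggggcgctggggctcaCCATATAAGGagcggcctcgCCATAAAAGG
CNN2, chr19:1026458-1026607, plus strand: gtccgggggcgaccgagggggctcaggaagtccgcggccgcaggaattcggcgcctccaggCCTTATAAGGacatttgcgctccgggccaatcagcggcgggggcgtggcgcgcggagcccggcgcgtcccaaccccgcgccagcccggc
At the start shown, SRF had 2 boxes, whose first bases lie 30 and 10 bases before it. A second SRF window (chr6:43172146-43172445) held neither a box nor the near form and is not printed. ACTG1 had 1 box at 94 bases before its start and CNN2 had 1 at 89. The downstream start of ACTA2 had 2 near forms, at 121 and 71 bases before the start, and its upstream start had neither form. Over all 35116 windows of the same length and on both strands, 1.29% held a CArG box and 6.94% the near form, with 8.13% holding either. No CArG box or near form was found in the windows of VCL, TPM1 and CNN1. A match describes the letters and was not tested for binding.

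Library totals ran from 12362101 to 19095828 counts, and 17966 genes had enough counts to be tested. Of 7 genes listed as markers of HEK-293T cells, 6 were tested, with a summed level of 248 to 327 CPM (counts scaled to the library total) in a library. The sum was 248 to 262 CPM with rapamycin, where 3 of the 6 tested were lower than with DMSO (298 to 324 CPM), beside 16% of all tested genes. With full-length Csy4 the sum was 278 to 284 CPM, with 1 of the 6 higher (22.9% of all tested genes) and 1 lower (24%). With split Csy4 it was 316 to 327 CPM untriggered and 312 to 320 CPM triggered, with 1 higher (14.8% and 16%) and 0 lower in each. LIN28B, KRT8 and KRT18 carried most of this sum, whereas the neurofilament gene NEFM, also in the list, had at most 1 count in any library. Of the blood cell markers, CD3E and HBB were at 0 in all 18 libraries, PTPRC had at most 2 counts and CD14 at most 17, and none was tested. Of the smooth muscle markers, MYH11, the smooth muscle myosin, had 11 to 30 counts in a library, and MYOCD, the SRF coactivator of smooth muscle, had 0 to 3. All levels below are CPM scaled with TMM factors, and all adjusted p-values for genes are edgeR quasi-likelihood p-values adjusted by Benjamini-Hochberg over the 17966 genes. A gene is called where this value is below 0.05.

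The 10 genes spanned a wide range of levels. Per kilobase of exon, ACTG1 stood at 454.8 ± 16.2 and ACTB at 385.4 ± 10.3 CPM per kb with DMSO (mean ± SD, n = 3, as in all values with ± below unless SE is named). VCL followed at 26.91 ± 0.717, SRF at 16.42 ± 0.712, CNN2 at 13.88 ± 0.589 and TPM1 at 4.785 ± 0.297. The smooth muscle genes lay far lower, ACTA2 at 1.315 ± 0.291, TAGLN at 0.2823 ± 0.0777, CNN1 at 0.1329 ± 0.0786 and MYL9 at 0.0505 ± 0.0259 CPM per kb. The SDs of neighbours in this order did not overlap from ACTG1 down to TAGLN, and those of TAGLN, CNN1 and MYL9 overlapped their neighbours. MYL9, the smooth muscle myosin regulatory light chain, had 0 to 5 counts in a library and 24 in all, did not pass the filter on low counts and was not tested. A count of 0 in a library allows up to 3 counts, which is 0.157 to 0.243 CPM depending on its depth. CNN1 was tested on 2 to 18 counts a library and TAGLN on 12 to 42, which limits what can be detected for both.

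**Figure D1:**
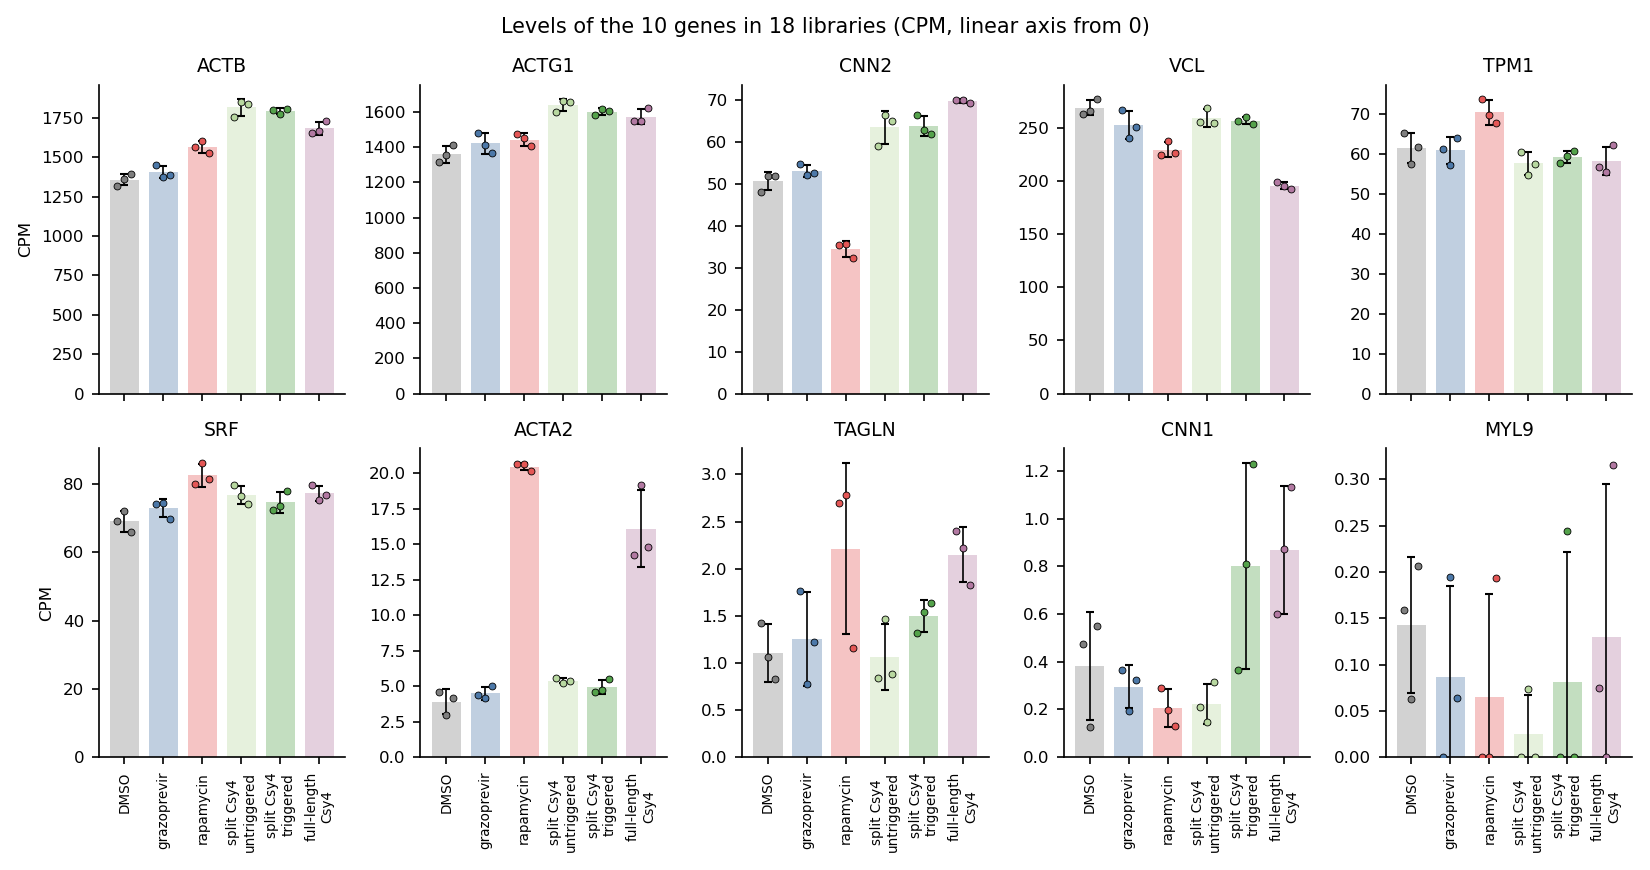
Level of each of the 10 genes in CPM (vertical axes, linear, each from 0) in the 6 groups; points are the 3 libraries, bars the mean and error bars the SD. ACTA2 stands near 20 CPM with rapamycin and at 14.25 CPM or more with full-length Csy4, against at most 5.594 CPM in every other library, and VCL is lowest with full-length Csy4.

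ACTB (chr7:5527148-5530601, GRCh38), a cytoplasmic actin and a common reference gene, was called higher than with DMSO in every treated group except grazoprevir alone. Its level was 1319, 1359 and 1391 CPM in the 3 DMSO libraries, and 1450, 1376 and 1388 CPM with grazoprevir. It was 1563, 1601 and 1526 CPM with rapamycin and 1654, 1663 and 1732 CPM with full-length Csy4. With split Csy4 it was 1755, 1852 and 1838 CPM untriggered and 1797, 1772 and 1806 CPM triggered. All 3 libraries of each of these 4 groups lay above all DMSO libraries, and the grazoprevir libraries overlapped them. In RNA from whole cultures, a change in the share of cells that express a gene and a change in its RNA per cell cannot be told apart. The log2 fold change from DMSO was 0.42 ± 0.0286 (SE) with untriggered split Csy4 (adjusted p = 7.68e-21), 0.40 with triggered split Csy4 (4.94e-20), 0.31 with full-length Csy4 (1.38e-15) and 0.21 with rapamycin (1.12e-08). ACTB was lower with full-length than with untriggered split Csy4, by a log2 fold change of -0.11 (edgeR adjusted p = 0.002), and than with triggered split Csy4 (-0.09, adjusted p = 0.0142). With library totals as the only scaling both of these calls were lost (-0.04, adjusted p = 0.266, and -0.03, adjusted p = 0.431).

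ACTG1 (chr17:81509971-81512799), the other cytoplasmic actin, was higher than with DMSO in the same 4 groups. It was 1317, 1354 and 1413 CPM with DMSO and 1602, 1662 and 1656 CPM with untriggered split Csy4. With triggered split Csy4 it was 1581, 1617 and 1608 CPM, and with full-length Csy4 1549, 1552 and 1622 CPM. The log2 fold changes from DMSO were 0.27 (adjusted p = 8.46e-12), 0.23 (6.1e-10) and 0.21 (5.27e-09). With rapamycin it was 1475, 1450 and 1406 CPM, a range that overlapped DMSO, and the rise of 0.08 (adjusted p = 0.0193) was lost without rapamycin library A (0.0919) or B (0.0653), without DMSO library 1 (0.177) or 2 (0.068), and with no filter (0.139). The 2 actins are near-identical as proteins and have many processed pseudogenes, and how multiply aligned reads were counted is not given in the sources used here. Pseudogene rows held at most 0.082% as many counts as ACTB (13 rows) and 0.367 to 0.687% as many as ACTG1 (21 rows).

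The ratio of ACTB to ACTG1 counts within a library removes scaling between libraries. It was 1.001, 1.004 and 0.9845 with DMSO and 0.9778, 0.9732 and 1.015 with grazoprevir. It was 1.059, 1.105 and 1.086 with rapamycin, 1.067, 1.071 and 1.068 with full-length Csy4, 1.095, 1.114 and 1.11 with untriggered and 1.137, 1.096 and 1.123 with triggered split Csy4. The last 4 groups did not overlap DMSO, with mean ratios 1.09, 1.07, 1.11 and 1.12 times that of DMSO. For each the exact permutation test (two-sided) gave p = 0.1, which is the lowest value possible for 3 libraries on each side, and 0.125 adjusted over 5 comparisons, so 0.05 was out of reach. For grazoprevir the exact permutation p was 0.8. Against GAPDH, a glycolytic enzyme often used as a reference beside ACTB, the ratio of ACTB differed by more. GAPDH itself was 2391 ± 18.8 CPM with DMSO, 1901 ± 41.7 with rapamycin and 1695 ± 61.4 with full-length Csy4. The ratio of ACTB to GAPDH counts was 0.5672 ± 0.0113 with DMSO and 0.993 ± 0.0212 with full-length Csy4, 1.75 times as high. It was 0.8227 with rapamycin, 0.87 with untriggered and 0.8851 with triggered split Csy4, and 0.5762 with grazoprevir.

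**Figure D2:**
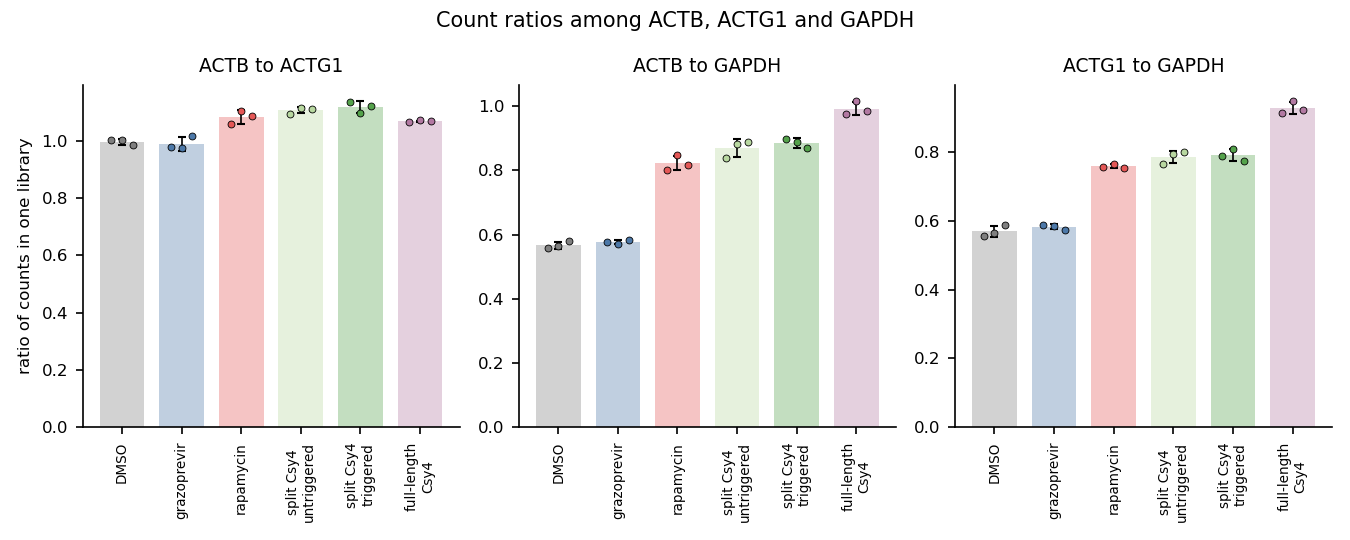
Ratio of the counts of 2 genes within one library (vertical axes, linear, from 0) in the 6 groups, with points for the 3 libraries, bars for the mean and error bars for the SD. The ratio of ACTB to ACTG1 stays between 0.9732 and 1.137 in all libraries, while that of ACTB to GAPDH has means from 0.5672 with DMSO to 0.993 with full-length Csy4 and that of ACTG1 to GAPDH from 0.5693 to 0.9291.

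ACTA2, the smooth muscle actin, had the largest log2 fold changes of the 9 tested members in rapamycin and in full-length Csy4 against DMSO. It was 4.604, 2.942 and 4.19 CPM in the DMSO libraries, on 47 to 87 counts each. With rapamycin it was 20.61, 20.6 and 20.15 CPM, and with full-length Csy4 14.25, 19.17 and 14.8 CPM. All 3 libraries of both groups lay above every library of the other 4 groups. With grazoprevir it was 4.34, 4.139 and 5.022 CPM, with untriggered split Csy4 5.594, 5.214 and 5.337 CPM, and with triggered split Csy4 4.599, 4.712 and 5.534 CPM. The log2 fold change from DMSO was 2.37 ± 0.139 (SE) with rapamycin (5.19-fold, adjusted p = 5.1e-25) and 2.03 ± 0.143 with full-length Csy4 (4.08-fold, adjusted p = 4.3e-21). Full-length Csy4 also lay above untriggered split Csy4 by 1.58 ± 0.139 (adjusted p = 6.28e-16) and above triggered split Csy4 by 1.69 ± 0.143 (1.11e-16), differences tested directly. These 4 calls held under every alternative run, including leaving out each library in turn. For untriggered split Csy4 against DMSO the log2 fold change was 0.45 (adjusted p = 0.0342). This call was lost without DMSO library 2 (0.28, adjusted p = 0.269), without library 1 (adjusted p = 0.0935), 2 (0.0549) or 3 (0.0714) of untriggered split Csy4, with no filter (0.0679) and in a fit of only these groups (0.052). The rapamycin and full-length comparisons share the DMSO libraries.

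ACTA2 lies on chromosome 10 at 88935074 to 88991337 (GRCh38, minus strand) and overlaps FAS, the death receptor gene on the opposite strand. In GENCODE 29, 380 of its 2976 exon bases (12.77%) are also exon of FAS and 516 (17.34%) of the antisense gene ACTA2-AS1. The sources used here do not say whether counting used strand, so reads of these genes in shared bases cannot be told apart. FAS was also higher, at 27.19 ± 1.26 CPM with rapamycin and 35.71 ± 1.27 CPM with full-length Csy4 against 14.91 ± 0.494 CPM with DMSO. Its log2 fold changes were 0.87 (adjusted p = 6.36e-13) and 1.26 (2.52e-21), beside 2.37 and 2.03 for ACTA2. In triggered split Csy4, FAS was 21.24 ± 1.01 CPM, higher than DMSO by 0.51 (adjusted p = 8.7e-06), while ACTA2 was 4.948 ± 0.51 CPM and not called (0.33, adjusted p = 0.136). ACTA2-AS1 had 0 to 8 counts in a library and was not tested.

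**Figure D3:**
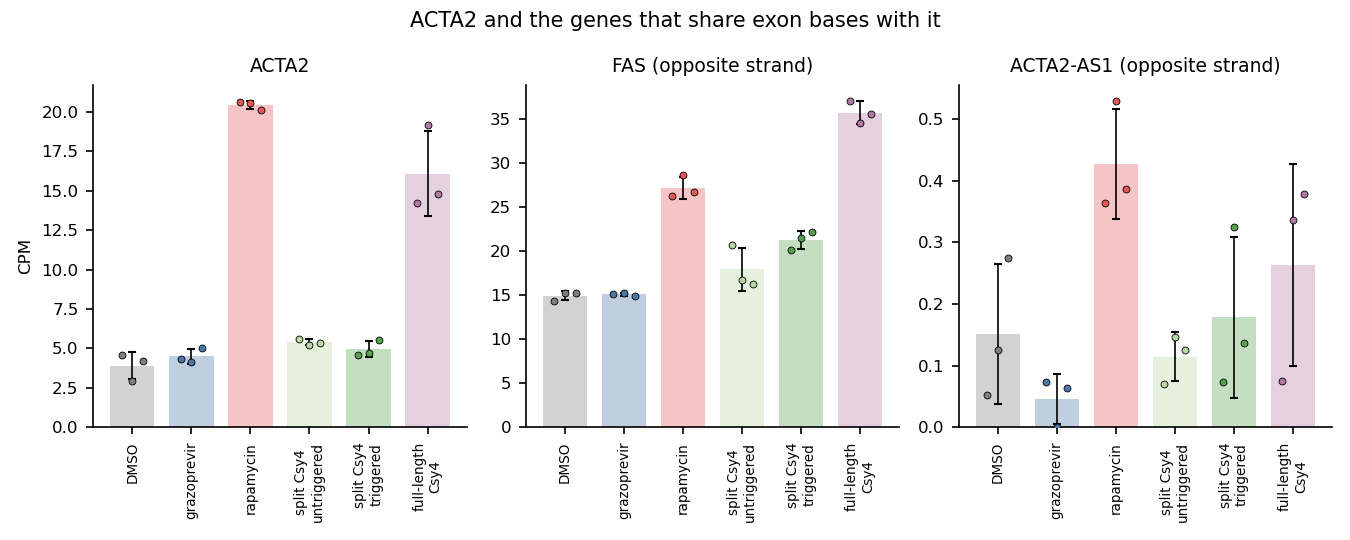
Levels in CPM (vertical axes, linear, from 0) of ACTA2, FAS and ACTA2-AS1 in the 6 groups, with points for the 3 libraries, bars for the mean and error bars for the SD. ACTA2 is highest with rapamycin (20.45 CPM), FAS with full-length Csy4 (35.71 CPM), and ACTA2-AS1 reaches at most 0.5298 CPM in any library.

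The other smooth muscle genes were near the limit of detection. TAGLN (chr11:117199294-117207465), the actin-binding protein transgelin, was 1.429, 1.064 and 0.8243 CPM with DMSO, 2.399, 2.219 and 1.827 CPM with full-length Csy4 and 2.694, 2.782 and 1.162 CPM with rapamycin. Full-length Csy4 did not overlap DMSO, and rapamycin did, through its library C. The log2 fold changes were 0.93 ± 0.336 (SE, adjusted p = 0.0181) and 0.97 ± 0.335 (0.0188). The first was lost without DMSO library 2 (adjusted p = 0.054) or 3 (0.091) or full-length library 1 (0.063). The second was lost without DMSO library 2 (0.059) or 3 (0.0956) or rapamycin library A (0.102) or B (0.137). TAGLN shares 446 of its 3917 exon bases with PCSK7 on the opposite strand, which was 17.78 CPM with rapamycin and 13.44 CPM with DMSO (0.40, adjusted p = 0.00316).

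CNN1 (chr19:11538851-11550323), the smooth muscle calponin, had 9, 2 and 8 counts with DMSO, 8, 13 and 18 with full-length Csy4 and 3, 2 and 5 with untriggered split Csy4. With triggered split Csy4 it had 5, 10 and 18 counts. It was called only in full-length against untriggered split Csy4 among the 10 comparisons (1.91 ± 0.614 SE, adjusted p = 0.0129), and this call was lost without full-length library 3 (0.0783) or untriggered library 2 (0.0638). Against DMSO its log2 fold change with full-length Csy4 was 1.18 (adjusted p = 0.0707).

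CNN2 (chr19:1026608-1039065), the calponin of non-muscle cells, was the one member that was called in opposite directions with rapamycin and with the transfections. It was 48.1, 51.77 and 51.87 CPM with DMSO, 35.31, 35.63 and 32.22 CPM with rapamycin and 70.03, 69.8 and 69.23 CPM with full-length Csy4. With split Csy4 it was 58.88, 66.39 and 64.92 CPM untriggered and 66.43, 62.8 and 61.9 CPM triggered. No library of these groups overlapped DMSO. The log2 fold change was -0.56 ± 0.0629 (SE) with rapamycin (adjusted p = 1.56e-11), 0.46 ± 0.0581 with full-length Csy4 (1.7e-10), 0.33 with untriggered (6.53e-06) and 0.33 with triggered split Csy4 (3.95e-06). Full-length Csy4 lay above untriggered split Csy4 by 0.14 (adjusted p = 0.0669), which passed the threshold with median-of-ratios factors (0.0496) and with library totals alone (0.00381). CNN2 shares 338 of its 3645 exon bases with AC011558.1 on the opposite strand, which the count table does not list under that name.

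VCL (chr10:73998116-74121363), vinculin, which links actin filaments to adhesion sites, was lower with full-length Csy4 than in any other group. It was 199.3, 195.1 and 192.4 CPM there, against 263.4, 266.3 and 277 CPM with DMSO. With rapamycin it was 224.1, 237.7 and 226.8 CPM. All libraries of both groups lay below DMSO, and their log2 fold changes were -0.46 ± 0.0378 (SE, adjusted p = 9.08e-18) and -0.23 ± 0.0374 (6.99e-07). With split Csy4 it was 259.5 ± 8.19 CPM untriggered and 256.6 ± 3.3 CPM triggered, neither called against DMSO (adjusted p = 0.327 and 0.171). The difference of full-length from split Csy4 was tested directly and was -0.41 against untriggered (adjusted p = 8.62e-15) and -0.39 against triggered (7.3e-14). VCL shares 1109 of its 9992 exon bases with AP3M1 on the opposite strand, which was 168.3 CPM with DMSO and 178.3 CPM with full-length Csy4 (0.08, adjusted p = 0.0933).

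TPM1 (chr15:63042747-63071915), a tropomyosin that covers actin filaments, was called only with rapamycin, where it was 73.83, 69.94 and 67.74 CPM against 65.3, 57.66 and 61.89 CPM with DMSO. The groups did not overlap, and the log2 fold change was 0.19 (adjusted p = 0.00616). The call was lost without rapamycin library A (0.0545) or DMSO library 2 (0.0816). In the groups with split or full-length Csy4 it was 54.86 to 62.3 CPM, which overlapped DMSO. It shares 2070 of 12876 exon bases with the antisense gene TPM1-AS, which had 6 to 20 counts in a library. TPM1 also shares 691 with the antisense gene AC079328.2, which the count table does not list under that name.

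SRF, on chromosome 6 at 43171269 to 43181506 (GRCh38), changed by small amounts. It was 69.17, 71.93 and 65.95 CPM with DMSO, 79.94, 86.16 and 81.3 CPM with rapamycin and 79.63, 75.18 and 76.79 CPM with full-length Csy4. Both groups lay above DMSO in all libraries, by log2 fold changes of 0.26 ± 0.0521 (SE, adjusted p = 4.64e-05) and 0.16 ± 0.0525 (0.0086). With untriggered split Csy4 it was 79.58, 76.52 and 74.09 CPM (0.15, adjusted p = 0.0219) and with triggered split Csy4 72.27, 73.37 and 78.02 CPM (0.11, adjusted p = 0.102). The call in full-length Csy4 was lost without DMSO library 3 (0.0728). That in untriggered split Csy4 was lost without DMSO library 1 (0.0562) or 3 (0.131), without its own library 1 (0.121) and with no filter (0.0697).

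Read by comparison, 7 of the 9 tested members were called in full-length Csy4 against DMSO, where 46.9% of all tested genes were called. Of these, 6 were higher (ACTB, ACTG1, ACTA2, TAGLN, CNN2 and SRF, beside 22.9% of all tested genes) and VCL was lower (24%). The median log2 fold change of the 9 was 0.311, beside -0.011 over all tested genes. Among all called genes 48.8% were higher, and 61.1% with library totals as the only scaling. For rapamycin against DMSO, 8 of 9 members were called beside 33.2% of all tested genes, 6 higher (17.2%) and 2 lower (16%), CNN2 and VCL. This count fell to 5 without DMSO library 2 or without rapamycin library A. For untriggered split Csy4 against DMSO, 5 of 9 were called, all higher, beside 28.9% of all tested genes called, 14.8% higher and 14.1% lower. Without untriggered library 1, 3 were called. Triggered split Csy4 against DMSO gave 3 of 9 (ACTB, ACTG1 and CNN2, all higher) beside 31.6% of all tested genes, 16% higher and 15.6% lower. The same 3 were higher against grazoprevir alone (0.35, 0.17 and 0.26), where 32.1% of tested genes were called, 16.2% higher and 16% lower. Comparisons with DMSO share its 3 libraries. The members were chosen with earlier results of these data known, so these counts are descriptions.

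Most of these differences were small, or had a wide error as for TAGLN. When edgeR tested against a 1.2-fold change instead of no change, the number of members called went from 7 to 3 in full-length Csy4 (ACTA2, CNN2 and VCL), beside 20.3% of all genes. With rapamycin it went from 8 to 2 (ACTA2 and CNN2), beside 7.83%. With either form of split Csy4 against DMSO only ACTB remained. In this edgeR test TAGLN lost its call at 0.93 ± 0.336 (SE) with full-length Csy4 (adjusted p = 0.0631) and 0.97 ± 0.335 with rapamycin (0.099).

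**Figure D4:**
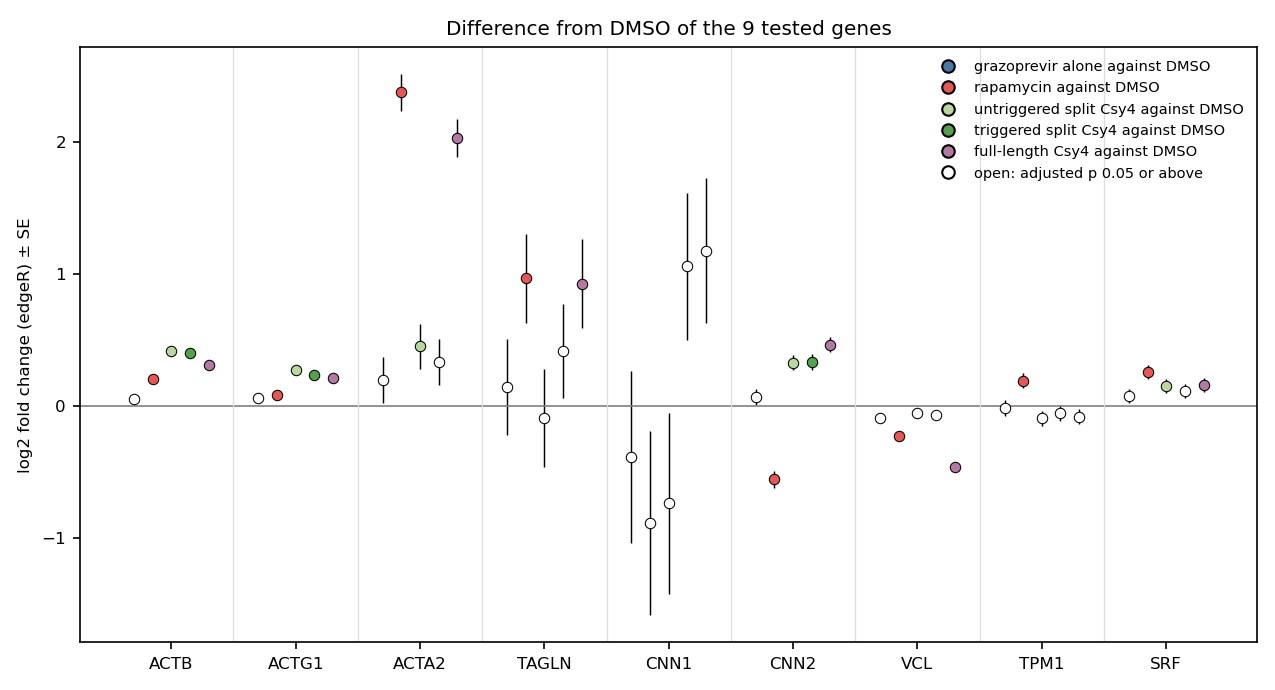
Log2 fold change from DMSO (vertical axis, edgeR, error bars ± SE) of the 9 tested genes in 5 groups; filled points are called at an adjusted p below 0.05 and open points are not. ACTA2 stands at 2.37 with rapamycin and 2.03 with full-length Csy4, and CNN2 lies below 0 with rapamycin and above 0 in the groups with Csy4.

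Full-length Csy4 was also set against the split forms directly. Against untriggered split Csy4, 5 of 9 members were called beside 28% of all tested genes: ACTA2, TAGLN (1.02, adjusted p = 0.0199) and CNN1 higher (13.1% of genes), ACTB and VCL lower (14.9%). The call of TAGLN was lost without full-length library 1 (0.0693) or 2 (0.0563) or untriggered library 1 (0.0913) or 3 (0.0939). Against triggered split Csy4, 3 of 9 were called beside 22.3% of all tested genes, ACTA2 higher (10.1%) and ACTB and VCL lower (12.2%). The call of ACTB there was lost without full-length library 1 (0.0989) or 2 (0.0941) or triggered library 1 (0.0523) or 3 (0.0593). Of all called genes 46.7% and 45.5% were higher in these comparisons, and 67.8% and 67.5% with library totals as the only scaling.

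No member was called for grazoprevir. Library 1 of grazoprevir alone stood apart from the other 2 (chi-square per degree of freedom over genes 4.634 and 3.569, against 2.207 between the others), and no member was called without it. Alone against DMSO, edgeR called 0 of 9 (0.2% of all tested genes, 0.106% higher and 0.0946% lower), DESeq2 also called 0 of the 6 for which it gave an adjusted p (not ACTA2, TAGLN or CNN1), and 2 members (ACTG1 and VCL) had an unadjusted p below 0.05. Triggered against untriggered split Csy4 gave 0 of 9 with edgeR and 0 of 8 with DESeq2, which gave no adjusted p for CNN1 (0.2%, with 0.195% higher and 0.00557% lower), with 1 member, CNN1, below an unadjusted 0.05 (log2 fold change 1.79, edgeR adjusted p = 0.376). The 95% interval of that CNN1 difference was 0.43 to 3.16, that of ACTB -0.08 to 0.04 and that of ACTA2 -0.48 to 0.25. The difference between the effects of grazoprevir in split Csy4 cells and in cells without a construct was called for 0 of 9 members by edgeR and for 0 of the 6 with a DESeq2 adjusted p, again without ACTA2, TAGLN and CNN1 (0.351% of genes, 0.178% higher and 0.173% lower), with ACTG1 and CNN1 below an unadjusted 0.05.

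The partners of SRF were described from a list of 8 genes, of which 7 were tested. Over all tested genes, the median log2 fold change from DMSO was -0.011 with full-length Csy4, -0.003 with untriggered and -0.005 with triggered split Csy4, and 0.016 with rapamycin, which is the background for this and the other lists. The shares of all tested genes called higher and lower were 22.9% and 24% with full-length Csy4, 14.8% and 14.1% with untriggered and 16% and 15.6% with triggered split Csy4, and 17.2% and 16% with rapamycin. Of the 7 partners, with full-length Csy4 3 were higher and 0 lower (median 0.136), with untriggered split Csy4 2 and 0, with triggered split Csy4 3 and 0, and with rapamycin 1 and 1. Together the called partners were 3 of 7 with full-length and 2 of 7 with untriggered split Csy4, close to the 46.9% and 28.9% of all tested genes. MRTFA, the coactivator that monomeric actin binds, was 17.61 CPM with DMSO and 27.16 CPM with full-length Csy4, a log2 fold change of 0.63 ± 0.0931 (SE, adjusted p = 2.06e-08). It was also higher with untriggered (0.43, adjusted p = 0.000245) and triggered split Csy4 (0.46, 8.53e-05). ELK4, a ternary complex factor, was higher in the same 3 groups (0.23, 0.24 and 0.34). The third gene of the list called higher with full-length Csy4 was SCAI (0.21, edgeR adjusted p = 0.00696), which belongs to neither partner family. MRTFB, the close relative of MRTFA, was called in none of the 4 groups against DMSO (edgeR adjusted p = 0.444, 0.0992, 0.171 and 0.833).

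Early SRF target genes, those induced with the ternary complex factors within minutes of a growth stimulus, were described from a list of 9. This list, like the others, was chosen with earlier results of these data known, so its counts are descriptions. Of 8 tested, 7 were higher with full-length Csy4 and 0 lower (median 0.844), 5 and 0 with each form of split Csy4, and 0 and 3 with rapamycin, beside 46.9%, 28.9%, 31.6% and 33.2% of all tested genes called in either direction. Triggered split Csy4 against grazoprevir alone gave 3 and 0 of 8, beside 32.1% of all tested genes. Tested against a 1.2-fold change from DMSO, 6 were higher with full-length Csy4, 2 with untriggered and 1 with triggered split Csy4. With rapamycin 0 were lower in that test. It called 20.3%, 4.52%, 6.37% and 7.83% of all genes in these comparisons. FOS went from 1.402 CPM with DMSO to 3.897 CPM with full-length Csy4 (1.47, adjusted p = 5.05e-06) and EGR1, another early transcription factor, from 2.181 to 5.785 CPM (adjusted p = 2.64e-08). With rapamycin FOS was lower (-0.88, adjusted p = 0.0444), on libraries that overlapped DMSO.

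Genes of actin assembly and turnover were described from a list of 23. Of these, all tested, 2 were higher and 12 lower with full-length Csy4 (median -0.102), or 4 and 7 with library totals as the only scaling. Against DMSO the counts were 5 and 4 with untriggered split Csy4, 2 and 3 with triggered split Csy4, and 7 and 3 with rapamycin, where 28.9%, 31.6% and 33.2% of all tested genes were called. TMSB4X, the monomer-binding thymosin, was lower with full-length Csy4 (-0.63, adjusted p = 0.00265), on 44 to 114 counts a library. WDR1, a cofactor of cofilin in filament disassembly, was higher in all 4 of these groups, by 0.20 with full-length Csy4, 0.16 with untriggered and 0.12 with triggered split Csy4 and 0.29 with rapamycin (adjusted p = 2.92e-05, 0.00142, 0.019 and 1.28e-08).

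Other contractile and adhesion genes mostly fell with full-length Csy4 where they were called: 2 of 22 tested were higher and 10 lower (median -0.156). The counts were 7 and 4 with untriggered split Csy4, 5 and 4 with triggered split Csy4, and 8 and 4 with rapamycin, beside the same shares of all tested genes. Set against untriggered split Csy4 directly, full-length Csy4 had 0 higher and 15 lower, or 1 and 11 with library totals as the only scaling. Of all tested genes, 13.1% were higher and 14.9% lower there. Against triggered split Csy4 it had 0 and 16, or 1 and 10, beside 10.1% and 12.2% of all tested genes. Tested against a 1.2-fold change, 0 were higher and 2 lower against either split form. That test called 4.8% and 3.6% of all genes. MYH10, a non-muscle myosin heavy chain, was 455.6 CPM with DMSO, 381 CPM with untriggered split Csy4 and 257.8 CPM with full-length Csy4 (-0.82 ± 0.0341 SE against DMSO, adjusted p = 3e-34). MYLK, the myosin light chain kinase, fell by 0.98 on the log2 scale with full-length Csy4 (adjusted p = 2.36e-08). ZYX, zyxin of adhesion sites, rose in all 4 groups (0.48 with full-length, 0.41 with each split form, 0.30 with rapamycin). ACTA1, the skeletal muscle actin, had 1 to 6 counts with DMSO and 21, 23 and 21 with full-length Csy4 (log2 fold change 2.81 ± 0.55 SE, adjusted p = 1.29e-05). It was also higher with untriggered (2.22, adjusted p = 0.00191) and triggered split Csy4 (1.62, 0.0377). The 2 genes of the list that were not tested, ACTC1 and ACTG2, had at most 4 counts in any library.

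**Figure D5:**
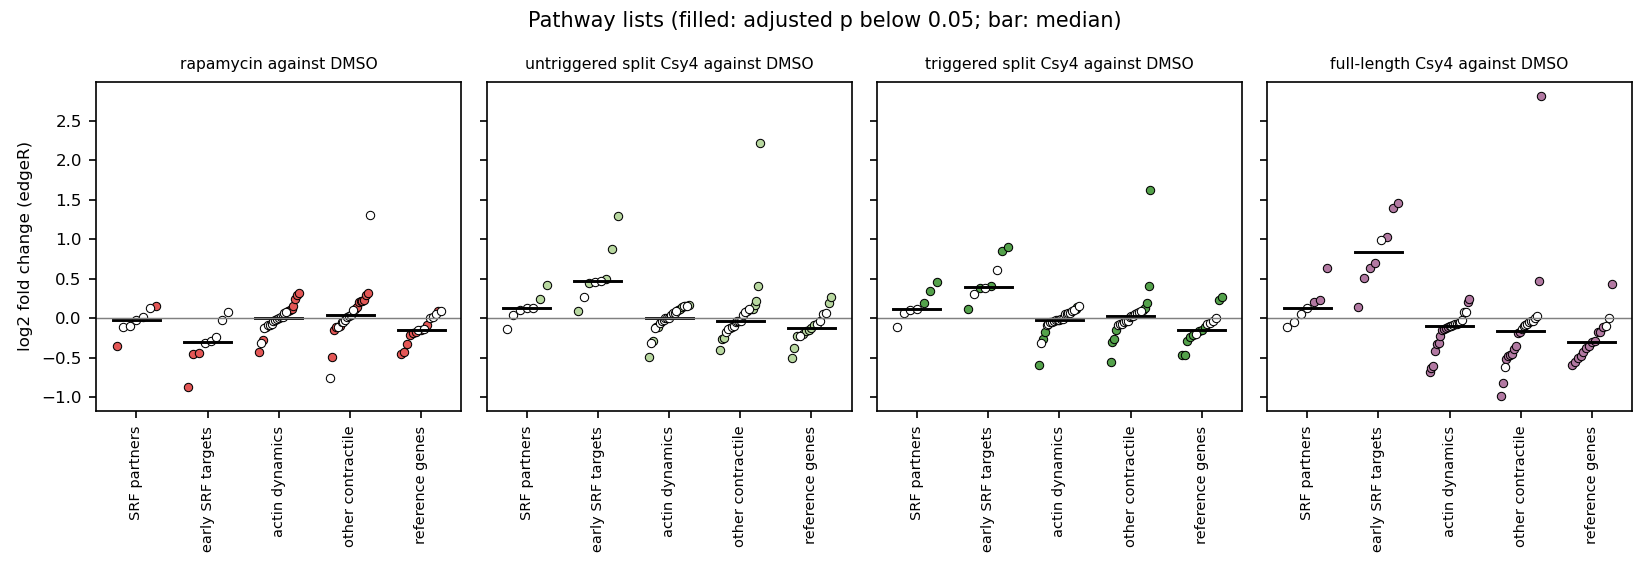
Log2 fold change from DMSO (vertical axis, edgeR) of each tested gene in 5 lists, in 4 groups; filled points are called at an adjusted p below 0.05, open points are not, and bars mark list medians. With full-length Csy4 the early SRF targets lie above 0 (median 0.844), while most called genes of actin dynamics, other contractile genes and reference genes lie below 0.

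The reference genes give the level against which ACTB is usually read. Of 15 tested, 1 was higher and 12 lower with full-length Csy4 (median -0.294), 2 and 8 with each form of split Csy4, and 1 and 8 with rapamycin. GAPDH fell by 0.50 on the log2 scale with full-length Csy4 (adjusted p = 1.67e-26) and RPLP0, a ribosomal protein gene, by 0.60 (1.31e-30). TBP, the TATA-binding protein, rose by 0.43 (adjusted p = 1.65e-07). GAPDH fell also with rapamycin (-0.33), untriggered (-0.20) and triggered split Csy4 (-0.24).

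Markers of other cell types moved with some of these results. The summed level of 6 smooth muscle markers was 74.6 to 77.6 CPM with full-length Csy4 and 46.9 to 63 CPM in the other groups, with 4 of 6 tested. SMTN, smoothelin, was the 1 called with full-length Csy4, at 48.01 CPM against 27.61 CPM with DMSO (0.79, adjusted p = 2.31e-15). Of all tested genes 22.9% were higher there. Against DMSO, 1 of the 4 was also called higher with triggered split Csy4 (16% of all tested genes) and 0 with untriggered split Csy4 (14.8%). With rapamycin 1 was called lower (16%) and 0 higher (17.2%). MYOCD and DES were not tested, with at most 3 and 9 counts in a library, and with rapamycin, where ACTA2 was highest, the sum was 46.9 to 49.9 CPM. The sum of 9 fibroblast markers, 4 of them tested, was 61.1 to 63.8 CPM with DMSO and below this range in every other group. It was 38.5 to 47.6 CPM with full-length Csy4 and 41.4 to 42.3 CPM with rapamycin. With grazoprevir alone it was 53.6 to 58.9 CPM. With split Csy4 it was 49.3 to 54.6 CPM untriggered and 47.7 to 56.4 CPM triggered. Against DMSO, 3 of the 4 were called lower with full-length Csy4 (24% of all tested genes) and 3 with rapamycin (16%). In split Csy4, 1 was called lower untriggered (14.1%) and 2 triggered (15.6%), and with grazoprevir alone 0 (0.0946%). COL1A2 and THY1 had at most 5 and 4 counts in a library. The part of other cell types in the differences of ACTA2 and TAGLN was not tested.

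Across the 18 libraries, ACTB and ACTG1 had a Pearson correlation of log2 CPM of 0.954, ACTA2 and SRF 0.708, and ACTA2 and TAGLN 0.687. Other pairs varied in opposite directions, with -0.842 for CNN2 and TPM1 and -0.807 for ACTA2 and VCL, and ACTB and ACTA2 had 0.218. These are descriptions over 18 libraries that share 6 treatments and a common scaling. Of 10135 other genes whose mean level reached 10 CPM, the 5 whose pattern was most like that of ACTB were SZRD1 (0.966), TLE3 (0.958), ACTG1, PTPN1 (0.95) and YWHAB (0.948). For SRF the most alike were UBXN2A (0.875), EPC2 (0.85), PHF2 (0.838), MSL1 (0.832) and DGCR8 (0.827).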

How the data were processed

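Per the labels' protocols, TRIzol was used for extraction, oligo(dT) beads for poly(A) selection and random primers for cDNA. The submitters' processing notes name HISAT2 2.2.1 and hg38, HTSeq 0.6.1, cutadapt 1.9.1 and DESeq2 1.44.0. Annotation and strand setting are not given in the sources used here. The authors deposited whole-number counts per gene. The 3 rapamycin columns share 1 name, so these libraries are called A, B and C and carry no replicate number.

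With edgeR 4.0.16 (R 4.3.3), genes were filtered by filterByExpr (17966 left, with 99.84% of counts), scaled by TMM and fitted in 1 robust quasi-likelihood model of 18 libraries with 6 group means. Benjamini-Hochberg adjustment covered every tested gene of a comparison. SE is |log2 fold change| over the root of F, and 95% intervals use 12 degrees of freedom. Alternatives were median-of-ratios factors, library totals alone, no filter, at least 1 CPM in 3 libraries as the filter, a test against 1.2-fold (glmTreat), only the groups compared, a replicate block, DESeq2 1.42.0 and leaving out each library. Libraries of 1 group differed by more than counting noise. With no molecular identifiers stated, floors cover counting error only.

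Positions and promoter windows are from RefSeq (GRCh38.p14) and exon overlaps from GENCODE 29. Correlations used log2 CPM with a prior count of 2. From each list, genes named are among the 4 with the highest mean level and the called genes with the 2 largest rises and 2 largest falls. Overlapping genes, untested list genes and single markers were named after their values were seen. The members and lists were chosen with earlier results of these data known.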

Additional observations from a re-analysis of the deposited data

How the results depend on the processing

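Of 1270 values of the 9 tested members under the alternatives, 1204 stayed on their side of the threshold, 59 lost a call, 7 gained one and 0 reversed. Among those kept, 24 values called under neither setting changed sign. The replicate block changed no member call, and neither did DESeq2 in the 83 cases where it gave an adjusted p. Same-numbered libraries deviated together weakly or not at all, with correlations of -0.134 to 0.232 over 10136 genes. In no comparison were all pairs above 0.1. Grazoprevir alone and DMSO gave 0.232, 0.178 and 0.021 for numbers 1, 2 and 3. The numbers were not taken to pair the libraries. With the replicate block the members called were 7 in full-length, 5 in untriggered and 3 in triggered split Csy4 against DMSO, and no such fit was made for rapamycin, whose columns carry no number.

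Tested against a 1.2-fold change, the members called were 3 in full-length Csy4, 1 in untriggered and 1 in triggered split Csy4 and 2 in rapamycin against DMSO, 1 in triggered split Csy4 against grazoprevir alone and 2 in full-length against untriggered split Csy4. Over all genes this test called 20.3%, 4.52%, 6.37%, 7.83%, 6.46% and 4.8% in these comparisons, and 3.6% in full-length against triggered split Csy4, where 2 members were called. It called 0 genes for grazoprevir alone against DMSO, where 36 were called by the quasi-likelihood test, 83 by DESeq2, 66 with the replicate block and 7 in a fit of only these groups. Leaving out 1 library gave 3 (without DMSO library 1) to 112 genes (without grazoprevir library 1) there, and 0 to 0 members. The difference between the grazoprevir effects, with 63 genes called, ranged from 14 (without triggered library 1) to 141 (without grazoprevir library 1). Triggered against untriggered split Csy4 went from 36 genes to 6. With no filter, 3 members were called in untriggered split Csy4 against DMSO. Leaving out 1 library gave 5 to 7 members in full-length Csy4, 3 to 4 in untriggered and 3 to 3 in triggered split Csy4 and 5 to 8 in rapamycin against DMSO. It gave 3 to 4 in triggered split Csy4 against grazoprevir, and 4 to 5 and 2 to 3 in full-length against untriggered and triggered split Csy4. The difference in the log2 ratio of ACTB to ACTG1 between grazoprevir and DMSO was -0.0116, and with GAPDH in place of ACTG1 it was 0.0229. Depth limits CNN1, TAGLN and MYL9 most.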
